A study of Malus domestica with 6 samples.

Results

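Transcripts of 5 nuclear genes of the photosynthetic apparatus were compared in red flesh (RF) and in white flesh (WF), both cut from the apple mesocarp. The genes encode rubisco activase (MD11G1095300, chromosome 11), the small subunit of rubisco (MD17G1244400, chromosome 17), photosystem II subunit Q-2 (MD05G1336200, chromosome 5), photosystem I subunit O (MD11G1169900, chromosome 11) and the photosystem II protein PSB29 (MD17G1085500, chromosome 17). They were chosen by gene ID from genes that the study itself had called between RF and WF, so their RF to WF differences selected them and are given here as a description. Where a call of the fit across all genes is mentioned for one of them, it rests on the same 6 libraries and is no independent test. They are 5 of 52311 gene IDs, and all 5 were among the 28610 genes with enough reads to enter the fit across genes.

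Fruits came from cv. 'R201', a red-fleshed apple planted in 2013 and given no treatment, and were picked 84 days after full bloom, when flesh that had been red throughout was becoming unevenly coloured. There were 3 RF and 3 WF libraries, lettered A, B and C in both groups, and each letter was a semi-biological replicate with fruits from different trees. Both flesh types were dissected from the same fruits, RF from the outer and WF from the inner cortex, so flesh colour and position in the fruit cannot be told apart. Poly(A) RNA was sequenced with strand-marked libraries, each holding between 25536185 and 26050906 estimated reads.

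Rubisco fixes CO2 in the chloroplast stroma as the entry step of the Calvin-Benson cycle. Its small subunit is made from nuclear genes and its large subunit from the plastid genome, and rubisco activase uses ATP to free rubisco from inhibitory sugar phosphates. Photosystems I and II lie in the thylakoid membrane and turn light into the reducing power and ATP that the cycle consumes. Young apple fruits are commonly green and photosynthetic, although the study describes red-fleshed ones as wholly red from fruit set. Chloroplasts of apple fruits are gradually lost or converted as the fruit grows.

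Levels of all 5 transcripts in RF lay above those in WF, and the carbon fixation genes differed by far more than the photosystem genes. The ratio of RF to WF group means was 3.98 for the rubisco small subunit and 2.15 for rubisco activase, against 1.6 for PSB29, 1.26 for photosystem I subunit O and 1.2 for photosystem II subunit Q-2. Every RF library was above every WF library for 5 of the 5 genes. Such a separation was seen for 15.1% of all tested genes, and nothing is read from the count since the genes were selected on this contrast. Levels are given in TPM, a read density per length of transcript scaled to the same total in each library, which allows levels of different genes to be compared.

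**Figure D1:**
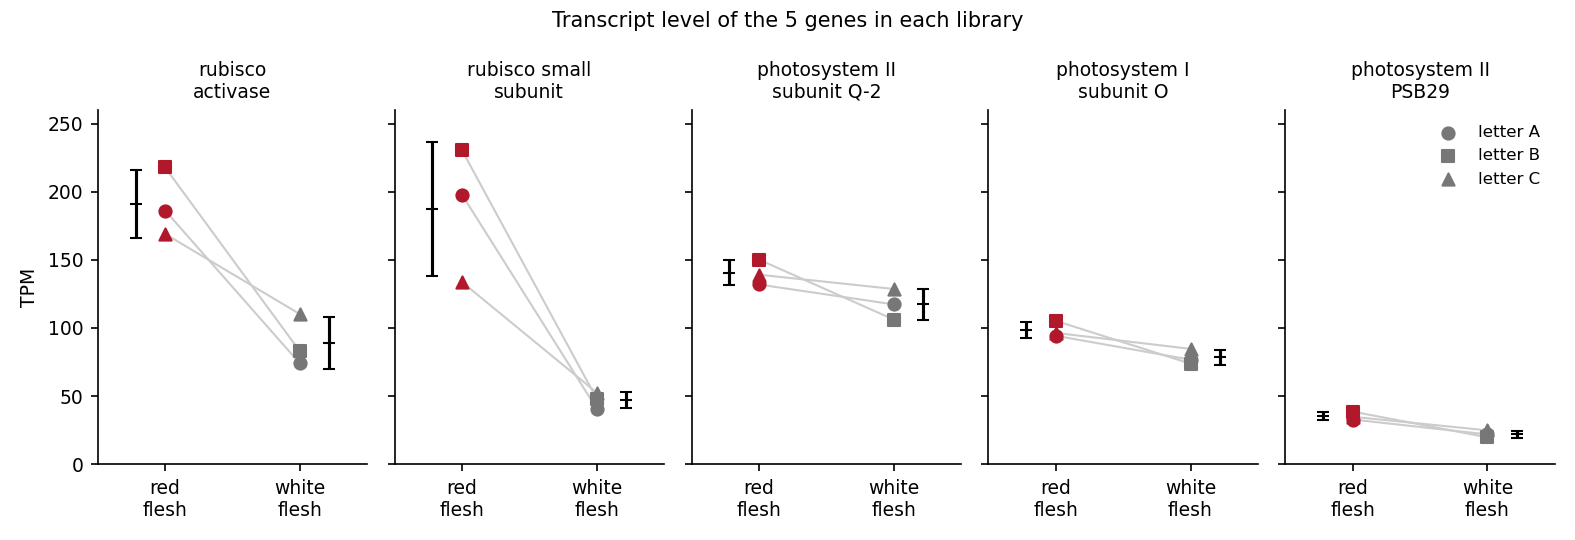
TPM of each of the 5 genes in RF (red points, left) and WF (grey points, right), with the marker shape giving the letter, grey lines joining RF and WF of the same fruits, and black bars the mean ± SD of 3 libraries. The rubisco genes lie at 134 to 230.4 TPM in RF and 40.7 to 110.2 TPM in WF, whereas the photosystem genes show small steps between the groups.

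The small subunit of rubisco caps the core of large subunits and is needed for full activity of the enzyme. Its transcript was at 198, 230.4 and 134 TPM in RF A, B and C, against 40.7, 48.1 and 52.5 TPM in WF A, B and C. The groups were far apart, with 81.2 TPM between the lowest RF library and the highest WF library, and RF C stood well under the other RF libraries. Means were 187 ± 49.2 TPM in RF and 47.1 ± 5.95 TPM in WF (SD, n = 3 each), and the log2 fold change fitted across all genes was 1.99 with a standard error of 0.175. Among all tested genes, this fold change was higher than that of 99.7%. By rank of TPM within a library, the gene stood between 581 and 1235 in RF and between 3544 and 4644 in WF.

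Rubisco activase had 186, 218 and 169 TPM in RF A, B and C, against 74.0, 82.9 and 110.2 TPM in WF A, B and C. The groups did not overlap, the lowest RF library and the highest WF library again being those lettered C. Means were 191 ± 24.8 TPM in RF and 89.0 ± 18.9 TPM in WF (SD, n = 3 each), with a fitted log2 fold change of 1.1 and a standard error of 0.136. In both flesh types the spread between libraries was wide for this gene, at 13% of the mean in RF and 21.2% in WF.

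PSB29 is known from cyanobacteria as a protein that copurifies with photosystem II, and in Arabidopsis as THYLAKOID FORMATION1, a protein needed for the normal build-up of thylakoids. Its transcript was the scarcest of the 5, at 32.8, 38.6 and 34.8 TPM in RF A, B and C, against 21.8, 19.7 and 24.8 TPM in WF A, B and C. All RF libraries lay above all WF libraries, by at least 7.97 TPM. Means were 35.4 ± 2.95 TPM in RF and 22.1 ± 2.56 TPM in WF (SD, n = 3 each), and the fitted log2 fold change was 0.68 with a standard error of 0.092, the largest of the photosystem genes.

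Photosystem I subunit O is a small membrane subunit that, in Arabidopsis, takes part in balancing excitation between the photosystems. It was at 94.3, 105 and 96.3 TPM in RF A, B and C, against 76.7, 73.8 and 84.6 TPM in WF A, B and C. The groups were separated by 9.62 TPM, a little less than the range within WF. Means were 98.6 ± 5.82 TPM in RF and 78.4 ± 5.62 TPM in WF (SD, n = 3 each), with a fitted log2 fold change of 0.33 and a standard error of 0.071.

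Photosystem II subunit Q-2 encodes a protein of the oxygen-evolving complex on the lumenal side of photosystem II. Its levels were 132, 150.2 and 139 TPM in RF A, B and C, against 117, 106 and 129 TPM in WF A, B and C. The lowest RF library was only 3.29 TPM above the highest WF library, so the groups nearly touched. Means were 140.4 ± 9.23 TPM in RF and 117 ± 11.2 TPM in WF (SD, n = 3 each), and the fitted log2 fold change was 0.26 with a standard error of 0.077.

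Over the whole table, edgeR's quasi-likelihood test at an adjusted p under 0.05 called 10.8% of tested genes, and 6.08% as higher in RF. In that fit 4 of the 5 genes were past the threshold and photosystem II subunit Q-2 was not, and nothing is read from this count because the genes had been selected on the contrast. Photosystem II subunit Q-2 was past it when RF and WF of the same fruits were paired as a replicate block, and photosystem I subunit O was not when either library of letter B was left out. Over all tested genes, edgeR called 2981 higher and 2401 lower in RF with the block, against 1740 and 1340 without it, whereas DESeq2 called 1482 and 1031 with the block, against 1579 and 1162 without it. The 5 genes were counted from 497 to 8295 estimated reads per library, so their levels were not limited by sparse counts. In bulk tissue, fewer cells rich in chloroplasts and less of each transcript per cell cannot be told apart.

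Set side by side within letters, the RF to WF ratios kept one order of genes in all 3 letters. The small subunit came at the top with ratios of 4.86 in A, 4.79 in B and 2.55 in C. Rubisco activase followed with 2.52, 2.63 and 1.53. PSB29 was next with 1.5, 1.96 and 1.4. Letter C gave the lowest ratio for every one of these genes, and the largest shortfall was in the carbon fixation genes. Photosystem I subunit O had ratios of 1.23 in A, 1.43 in B and 1.14 in C, and photosystem II subunit Q-2 had 1.12, 1.41 and 1.08, so these genes differed least and were closest to equality in letter C. Over the 1740 genes called higher in RF, letter C held the lowest ratio in 44.0%, letter B in 37.5% and letter A in 18.6%.

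**Figure D2:**
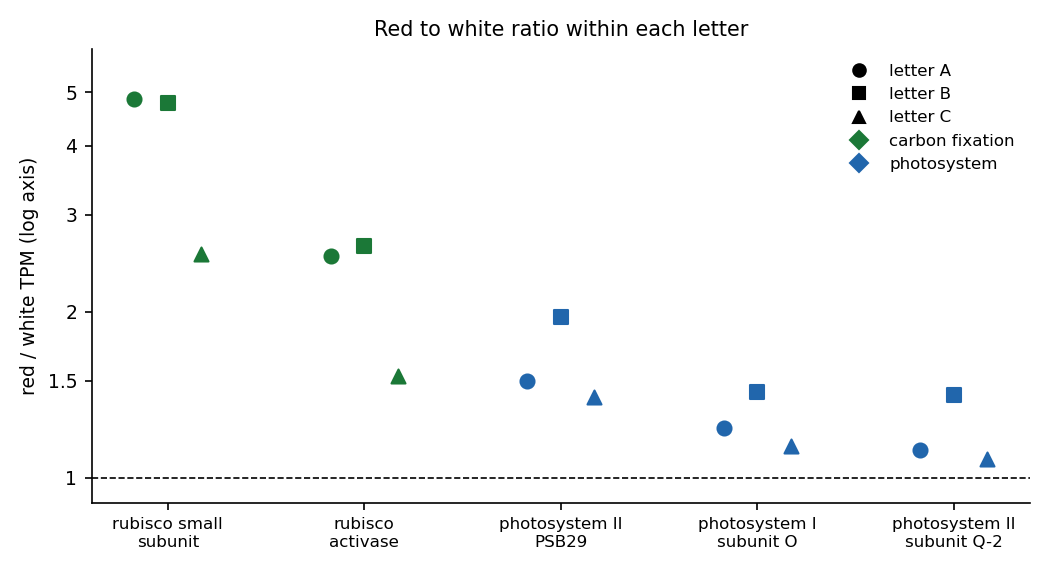
Ratio of RF to WF TPM on a log axis for each gene, by letter (marker shape), with carbon fixation genes in green, photosystem genes in blue and a dashed line at equal levels. Ratios of the rubisco small subunit reach 4.86, all points lie above 1, and the triangle of letter C is the lowest point of each gene.

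The difference between both kinds of gene was expressed as the mean log2 ratio of the carbon fixation genes minus that of the photosystem genes, on log2(TPM + 1). It was 1.44 in letter A, 1.17 in letter B and 0.72 in letter C, with a mean of 1.11 and an SD of 0.37 over the 3 letters. The carbon fixation genes contributed a mean log2 ratio of 1.79 in A, 1.81 in B and 0.97 in C. The photosystem genes contributed 0.34, 0.65 and 0.26. The sign was the same in every letter, and the size in letter C was the smallest because its carbon fixation ratio was low, whereas the photosystem ratios of C lay close to those of A.

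Because the genes changed by unequal amounts, their order by abundance differed between the flesh types. In WF, photosystem II subunit Q-2 was the most abundant of the 5 in every library, and the small subunit ranked above PSB29 alone. In RF A and RF B the small subunit was the most abundant, followed by rubisco activase and photosystem II subunit Q-2. In RF C rubisco activase was first, followed by photosystem II subunit Q-2 and then the small subunit. PSB29 was the least abundant in all 6 libraries. Within RF, the means of rubisco activase and the small subunit did not differ beyond their spread, and the range of the small subunit also overlapped that of photosystem II subunit Q-2. Within WF, the ranges of rubisco activase and photosystem I subunit O overlapped, as did those of rubisco activase and photosystem II subunit Q-2, while the small subunit and PSB29 lay apart from their neighbours.

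Of the summed TPM of the 5 genes, the carbon fixation genes took 59.7%, 60.4% and 52.8% in RF A, B and C, against 34.7%, 39.6% and 40.6% in WF A, B and C. Every RF library was thus above every WF library, with means of 57.6 ± 4.20% in RF and 38.3 ± 3.16% in WF (SD, n = 3 each). The summed TPM of the carbon fixation genes averaged 378 ± 72.9 in RF and 136 ± 24.5 in WF, a ratio of 2.78, while that of the photosystem genes averaged 274 ± 17.9 in RF and 218 ± 19.2 in WF, a ratio of 1.26. On CPM, which is not divided by length, the carbon fixation share was 66.6% in RF and 50.9% in WF.

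**Figure D3:**
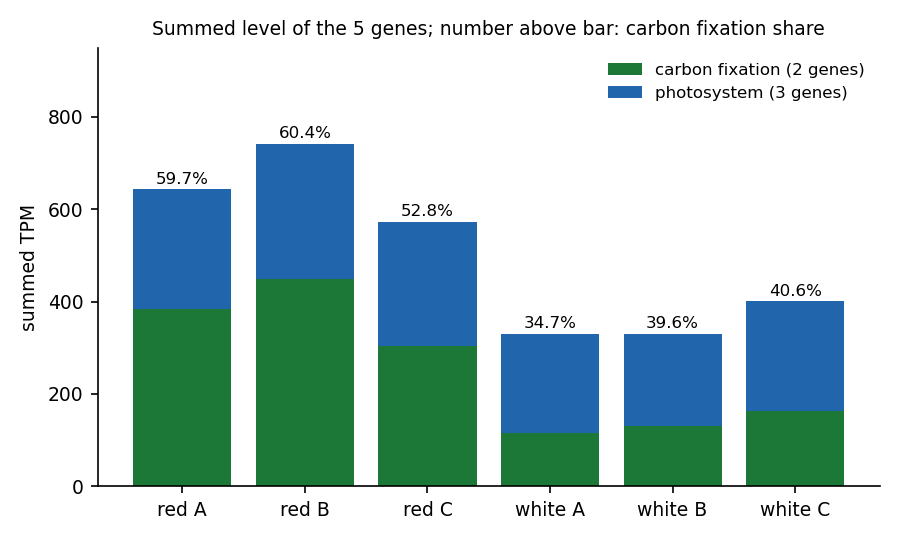
Summed TPM of the 5 genes in each library, RF on the left and WF on the right, split into carbon fixation genes (green) and photosystem genes (blue), with the carbon fixation share printed above each bar. The share is 52.8% to 60.4% in RF and 34.7% to 40.6% in WF, and most of the difference in bar height lies in the green part.

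Proportions between genes of one library show where the balance shifted. Rubisco activase stood at 0.941, 0.945 and 1.26 times the small subunit in RF A, B and C, against 1.82, 1.72 and 2.1 times in WF A, B and C, so activase was in excess of the small subunit in WF and close to it in RF. Photosystem II subunit Q-2 was at 1.4, 1.43 and 1.44 times photosystem I subunit O in RF, against 1.53, 1.44 and 1.52 times in WF. That proportion between genes of the different photosystems had means of 1.42 ± 0.0208 in RF and 1.5 ± 0.0493 in WF (SD, n = 3 each). PSB29 was at 0.348, 0.367 and 0.361 times photosystem I subunit O in RF, against 0.285, 0.267 and 0.293 times in WF, with no overlap.

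Libraries of one group also differed in a shared way. RF B was the highest RF library for 5 of the 5 genes and WF C the highest WF library for 5 of 5, where RF B was highest for 38.6% and WF C for 31.9% of all tested genes. In RF C, the log2 CPM of the 3 photosystem genes lay between -0.05 and -0.02 from the RF mean, the small subunit at -0.47 and rubisco activase at -0.17. In WF B, PSB29 lay at -0.16 and photosystem II subunit Q-2 at -0.14 from the WF mean, farther from it than rubisco activase at -0.09 and the small subunit at 0.04. In WF C, rubisco activase was 0.34 above its WF mean, the small subunit 0.17, and the photosystem genes between 0.12 and 0.19.

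The other genes of rubisco and its partners were mostly far less abundant. Of 10 genes in this list, 9 were tested and all 9 were higher in RF, with a median log2 fold change of 1.1 beside -0.005 for all tested genes. Without WF B, 5 of them passed. The descriptions behind this list and the other photosynthesis lists came for 56 of 59 genes from the study's own called genes. Those of the plastid, epidermis and cuticle, vascular and anthocyanin genes below came wholly from them. The counts and fold changes of all these lists are therefore not independent evidence of direction or size.

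A second gene described as rubisco small chain 1A (MD09G1252100) was at 1.94 ± 0.771 TPM in RF and 0.614 ± 0.156 TPM in WF (SD, n = 3 each), with a log2 fold change of 1.65. Its level was a small fraction of that of MD17G1244400, whose estimated reads were more than 0.02 from a whole number in 5 of 6 libraries. The same held in 6 libraries for rubisco activase, 5 for photosystem II subunit Q-2, 4 for photosystem I subunit O and 3 for PSB29. How reads were shared between the small chain 1A copies is not known, so the level of the rarer copy is uncertain. Another gene, described only as of the small chain family (MD16G1042700), averaged 24.9 ± 3.53 TPM in RF and 15.1 ± 5.13 TPM in WF, and its groups overlapped. A second rubisco activase (MD03G1086300) averaged 13.2 ± 2.27 TPM in RF and 6.71 ± 1.20 TPM in WF, with a log2 fold change of 0.97 near that of the abundant activase.

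Another gene described as rubisco activase (MD07G1202200) went the other way at the limit of detection, with 3, 5 and 4 estimated reads in RF A, B and C, against 6, 9 and 13 in WF A, B and C, and was too scarce to be tested. RbcX proteins are chaperones for the assembly of the large subunit. The 3 RbcX genes MD10G1325900, MD03G1175000 and MD11G1193100 had log2 fold changes of 1.15, 1.14 and 0.61 and were higher in RF. A gene of the rubisco methyltransferase family (MD17G1118300) averaged 3.94 ± 0.154 TPM in RF and 2.53 ± 0.323 TPM in WF.

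The other tested photosystem genes all had larger fold changes than subunits Q-2 and O, from 0.452 to 2.103 on the log2 scale. Of 7 photosystem II genes tested, 6 were higher in RF and photosystem II subunit Q-2 was the one not called. PsbP proteins belong to the same oxygen-evolving side of photosystem II, and a PsbP family gene (MD16G1283100) averaged 4.21 ± 0.793 TPM in RF and 1.72 ± 0.366 TPM in WF, with a log2 fold change of 1.28. The photosystem II BY gene (MD16G1106800) averaged 44.9 ± 9.17 TPM in RF and 29.03 ± 3.58 TPM in WF. The stability and assembly factor genes MD13G1005900 and MD16G1002000 and a high chlorophyll fluorescence gene (MD09G1169900), whose product in Arabidopsis helps to translate a core reaction centre protein, had log2 fold changes of 0.70, 0.45 and 0.61.

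Of 6 photosystem I genes, 5 were tested and all 5 were higher in RF, falling to 3 without RF B or without WF B. The P subunit gene MD07G1160900 was at 9.88, 13.4 and 8.31 TPM in RF A, B and C, against 1.4, 2.09 and 3.84 TPM in WF A, B and C. Its log2 fold change was 2.103 with a standard error of 0.288, on 28 to 266 estimated reads per library. Within these errors it was not separated from the rubisco small subunit, at 1.99 with a standard error of 0.175. Its copy MD01G1089400 averaged 8.52 ± 1.35 TPM in RF and 3.39 ± 0.332 TPM in WF. The subunit L genes MD12G1260300 and MD04G1244400 had log2 fold changes of 0.79 and 0.46, and subunit H2 (MD02G1178900) had 0 estimated reads in all 6 libraries.

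The wide gap was therefore smaller over these longer lists, in which genes of rubisco and its partners were set against photosystem genes. The median log2 fold change was 1.1 over the 9 rubisco genes and 0.65 over the 12 photosystem genes, a difference of 0.45. Calvin-Benson genes, also of carbon fixation, were not part of this comparison. Their median of 0.62 over 14 genes lay slightly below that of the photosystem genes, so the gap was not seen over that list as a whole. Some of its genes nevertheless came near rubisco activase. With the 5 genes themselves left out, the medians were 0.97 over 7 rubisco genes and 0.70 over 9 photosystem genes. Summed over the whole lists, the rubisco list took 53.4%, 55.4% and 48.0% of the TPM in RF A, B and C, against 33.9%, 38.01% and 39.4% in WF A, B and C.

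**Figure D4:**
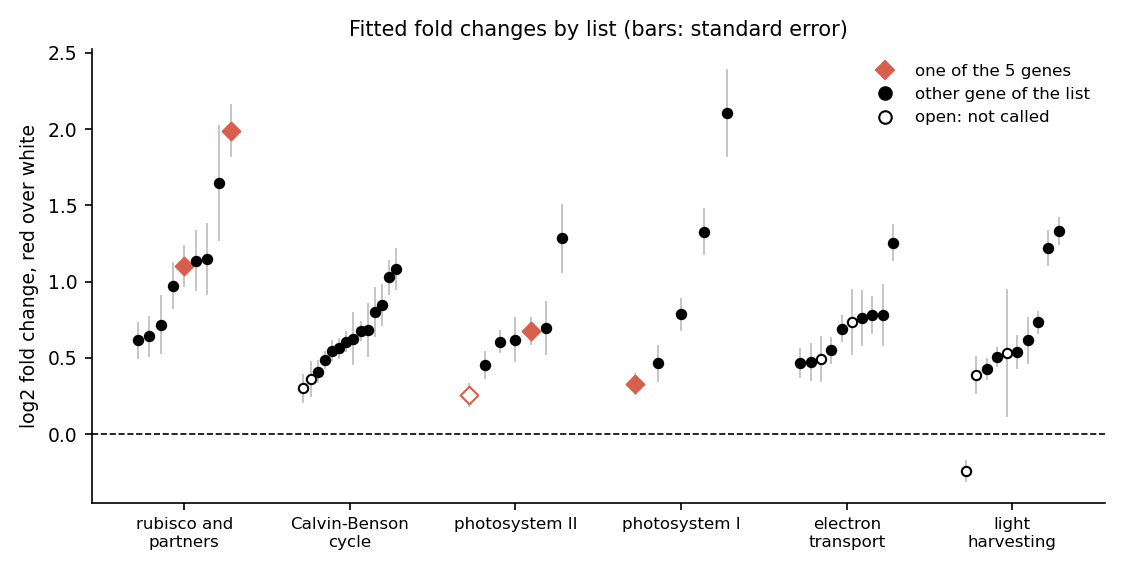
Fitted log2 fold changes of RF over WF with their standard errors for tested genes of 6 lists, with the 5 genes as orange diamonds, other genes as black circles and open symbols where edgeR did not call the gene. The rubisco small subunit is the highest point of its list at 1.99, whereas photosystem I subunit O at 0.33 and photosystem II subunit Q-2 at 0.26 are the lowest of theirs.

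Downstream of rubisco, 12 of 14 Calvin-Benson genes were higher in RF and 2 were not called, with a median log2 fold change of 0.62. The most abundant was CP12 domain-containing protein 2 (MD03G1295100), a regulator that binds enzymes of the cycle, at 462 ± 21.4 TPM in RF and 359 ± 76.7 TPM in WF, which was not called (edgeR adjusted p = 0.081, or 0.0112 when paired by the block). The transketolase genes MD02G1207200 and MD07G1119500 averaged 195 ± 6.08 and 171 ± 4.19 TPM in RF, against 134 ± 7.70 and 122 ± 0.804 TPM in WF. A phosphoglycerate kinase gene (MD05G1234000) averaged 148 ± 11.8 TPM in RF and 100.4 ± 4.48 TPM in WF. These abundant enzymes of the cycle had log2 fold changes of 0.485 to 0.563, nearer to those of the photosystem genes than to that of the rubisco small subunit. Their descriptions do not say whether they encode plastid forms. Over all 14 genes the log2 fold changes ran from 0.299 to 1.085. The highest were close to that of rubisco activase at 1.101. They were glyceraldehyde-3-phosphate dehydrogenase B subunit (MD06G1006500) at 1.085 and A subunit 2 (MD17G1003500) at 1.027, both named after their values were seen.

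Electron transport genes, which link the photosystems, were higher in RF for 8 of 10, with 2 not called and a median log2 fold change of 0.71, and 4 passed without WF B and 5 without RF B. Plastocyanin 1 (MD08G1007200), the copper protein that feeds photosystem I, averaged 130.2 ± 12.8 TPM in RF and 94.1 ± 6.84 TPM in WF. The PHOTOSYNTHETIC ELECTRON TRANSFER C gene (MD17G1086300), for the Rieske protein of the cytochrome complex, averaged 87.9 ± 11.3 TPM in RF and 54.4 ± 3.07 TPM in WF. A ferredoxin-NADP(+)-oxidoreductase 1 gene (MD02G1130800) had a log2 fold change of 0.55 and PGR5-LIKE A (MD04G1071000), of cyclic electron flow, one of 0.78.

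Light-harvesting genes were higher in RF for 7 of 10 and not called for 3. The chlorophyll A-B binding gene MD13G1200600, by far the most abundant, was at 1399, 1242 and 1435 TPM in RF A, B and C, against 825, 769.9 and 852 TPM in WF A, B and C, and did not share the low ratio of letter C. The chlorophyll A/B binding gene MD10G1265400 averaged 152 ± 9.07 TPM in RF and 179.8 ± 14.3 TPM in WF (edgeR adjusted p = 0.0546, or 0.0191 when paired by the block). Its neighbour by ID and copy by description, MD10G1265300, named after its values were seen, was at 119.7 ± 6.07 TPM in RF and 47.5 ± 6.40 TPM in WF, and how reads were divided between near-identical copies is uncertain. Both glycine decarboxylase P-protein genes of photorespiration, MD08G1061500 and MD15G1060200, were higher in RF with log2 fold changes of 0.48 and 0.43.

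Plastid gene expression, import and folding genes were higher in RF for 12 of 15, lower for 2 and not called for 1. Chaperonin-60alpha (MD11G1141000), a subunit of the chloroplast chaperonin that folds rubisco, averaged 130.2 ± 9.95 TPM in RF and 109 ± 4.31 TPM in WF. Outer plastid envelope protein 16-1 (MD11G1108500) was lower in RF, at 129 ± 15.7 TPM in RF and 166 ± 8.16 TPM in WF.

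Among genes with a description and a mean of at least 50 reads, those whose log2 CPM pattern over the 6 libraries was most like that of the carbon fixation genes were an NAD(P)-binding Rossmann-fold gene (MD09G1082100, Pearson r = 0.999), a ferredoxin-NADP(+)-oxidoreductase 1 gene (MD15G1244500, r = 0.998) and serine transhydroxymethyltransferase 1 (MD01G1044100, r = 0.996). Closest to the photosystem genes were a gene of unknown function (MD09G1209100), an Hsp40/DnaJ chaperone (MD17G1213500) and light harvesting complex of photosystem II 5 (MD05G1000500), each with r = 0.996. The r values describe 6 libraries that form 2 groups, and the 1905 genes searched came mostly from the study's called genes, so a high r largely restates a difference between RF and WF. The light harvesting gene was at 162, 181 and 170 TPM in RF A, B and C, against 125, 117 and 139 TPM in WF A, B and C, and had RF B and WF C as its highest libraries, as the 5 genes did.

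Markers of other tissues of the fruit gave mixed directions. Of 11 tested epidermis and cuticle genes, 8 were higher and 2 lower in RF, with none of the 12 listed at 0 throughout, and the list's summed TPM of 461 to 573 in RF overlapped 416 to 478 in WF. Of its abundant lipid-transfer genes, MD11G1011100 was lower in RF, at 96.5 ± 4.22 TPM in RF and 119 ± 7.04 TPM in WF. MD04G1087300 overlapped between the groups, at 272 ± 46.4 TPM in RF and 215 ± 13.02 TPM in WF. It was higher in RF in 3 letters but not called (edgeR adjusted p = 0.0691, or 0.00692 when paired by the block). Lipid transfer protein 4 (MD12G1187100), named after its values were seen, had the list's largest log2 fold change of 3.625. It was at 17.4 ± 10.2 TPM in RF and 1.4 ± 0.654 TPM in WF. Of 5 vascular genes, 3 were higher and 2 lower in RF, and their summed TPM of 1260 to 1450 in RF lay above 854 to 1030 in WF. Most of that sum was xylem bark cysteine peptidase 3 (MD05G1300100), at 1270 ± 87.5 TPM in RF and 873 ± 85.01 TPM in WF, with phloem protein 2-B15 (MD04G1197700) at 34.7 ± 4.89 TPM in RF and 15.2 ± 1.79 TPM in WF. The 2 lower genes were named after their values were seen. They were phloem protein 2-A1 (MD05G1254200) and another xylem bark cysteine peptidase 3 gene (MD08G1023300), with log2 fold changes of -0.36 and -0.485. The part of these tissues in the RF to WF differences of the 5 genes was not tested. Of the anthocyanin genes, glutathione S-transferase phi 12 (MD17G1272100) was at 1566 ± 178 TPM in RF and 343 ± 32.2 TPM in WF. A chalcone synthase family gene (MD04G1003300) was at 1438 ± 85.7 TPM in RF and 414 ± 44.1 TPM in WF. The study had called these genes in the same libraries, so their direction is no independent check of the labels.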

How the data were processed

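Messenger RNA was measured in 3 RF and 3 WF libraries. The authors deposited 1 salmon table per library holding an estimated count of reads, a TPM value, a length and an effective length for each gene. Fractions of a read occur in the estimated counts, since a read fitting more than 1 gene is shared out. The study names AnaDiff for alignment and quantification and GDDH13 v1.1 as the genome, while program versions were not given in the sources used here. In the RefSeq gene table, 0 of the IDs were found, so names were taken from the study's functional annotation (2124 IDs), chromosomes were read from the ID, and sequences and coordinates were not used here. The authors' own fold changes and p-values were not used.

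Estimated counts were rounded and compared by the quasi-likelihood test of edgeR (version 4.0.16, R 4.3.3), with TMM scaling, the default expression filter and no term but flesh type. Two-sided p-values for 28610 genes were adjusted after Benjamini and Hochberg, and a standard error is the fold change over the root of its F statistic. The replicates are fruits from different trees, and p-values of the main fit measure the spread between libraries of the same flesh type. That fit ignored the pairing of RF and WF by letter, which only the replicate block took into account. The scripts were tested on simulated data. Deposited TPM values were used for levels and ratios and were not tested, and 1 was added before logs. DESeq2 (version 1.42.0), the study's tool, was an alternative, as were the replicate block, DESeq2 size factors, no low-count filter, a filter at a mean of 50 counts, offsets for effective length, pseudocounts of 0.1 and 10, and leaving out each library.

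Letters were taken to pair the samples, since per the labels each fruit gave both flesh types. Deviations from the group means, correlated across genes, gave r = 0.269 for A, 0.232 for B and 0.234 for C, and between -0.223 and 0.000425 for different letters.

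The 5 genes, the lists and the rule for naming genes were chosen with earlier results of these data known. Lists were picked by hand from a word search of the study's called genes, with its fold changes in view, and ambiguous entries were left out. Named were the 5 genes, every gene of the rubisco and photosystem lists, the 4 most abundant by mean TPM of the Calvin-Benson and electron transport lists, the 2 most abundant of each other list, and the 3 described genes most like each of the carbon fixation and photosystem genes.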

Additional observations from a re-analysis of the deposited data

How the results depend on the processing

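The log2 fold changes of rubisco activase, the rubisco small subunit and PSB29 kept their direction and their side of the threshold under all alternatives tried, which for genes selected on this contrast describes the fits and is no independent test. Photosystem II subunit Q-2 was called at a log2 fold change of 0.26 with the replicate block (0.259), with DESeq2 (0.257) and with DESeq2 and the block together (0.260, chosen after seeing the data), and spanned 0.185 to 0.329 when a library was left out, being called only without WF C. Photosystem I subunit O spanned 0.274 to 0.388 when a library was left out and was not called without RF B (0.274) or WF B (0.284). The block changed no other call among the 5 genes. Over all genes, edgeR called 2981 higher and 2401 lower with the block, DESeq2 with the block called 1482 higher and 1031 lower (chosen after seeing the data), fewer than the 1579 and 1162 of DESeq2 without it, and edgeR called 939 to 1624 higher and 666 to 1523 lower when a library was left out. The lowest counts came without WF B (939 higher, 705 lower) and without RF A (941 higher, 666 lower), and 807 were lower without RF C. The lists gave 5 to 9 genes higher for rubisco, 3 to 5 for photosystem I and 4 to 9 for electron transport when a library was left out. The carbon fixation minus photosystem log2 ratio was 0.94 to 1.304 when a letter was left out. With medians over the rubisco list and the photosystem lists, Calvin-Benson genes not included, it moved to 0.452 (chosen after seeing the data). The carbon fixation share moved to 66.582% in RF and 50.88% in WF on CPM. It moved to 52.252% in RF over the rubisco and photosystem lists, again without Calvin-Benson genes. Depth did not limit the 5 genes, but reads divided between similar gene copies limit the level of each copy.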
